A study of Bos taurus with 9 samples.

Results

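Primary cells of the uterine lining, described as bovine endometrial epithelial cells (BEEC), were studied. They were compared after contact with embryos from a regime labelled HIGHGLUC and after contact with control embryos. The comparison used 3 libraries a side, 6 of the 9 libraries of the study, chosen by their label. The control libraries were 5, 9 and 13 and the HIGHGLUC libraries were 6, 10 and 14, and values below are always given in that order. The cells came from the scraped surface of 3 uteri at the early luteal stage. Per the protocol they were frozen at passage 1, while the sample fields of the labels give a later passage. In every group 5 morulae, which had been conditioned beforehand, lay on the monolayer from day 4 to day 8 after fertilisation, and each library pooled the cells of 3 wells. It was the embryo, not the endometrial cell, that carried the HIGHGLUC history. The labels give no glucose concentration, and no library of cells without embryos was analysed here. The labels also tie no library to a separate uterus, culture or day, so the p-values below cover no more than the spread of these libraries.

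The uterine lining of cattle responds to interferon tau, a type I interferon that the trophectoderm of the early embryo secretes and that serves as the signal of pregnancy in ruminants. The interferon binds a surface receptor, the kinases TYK2 and JAK1 activate STAT and IRF9 proteins, and these switch on a set of antiviral genes. The set holds sensors of foreign RNA, effectors that block viral replication, and ISG15, a ubiquitin-like protein that is attached to other proteins and is a classical marker of early pregnancy in the bovine uterus. Glucose enters cells through transporters of the SLC2A family, feeds glycolysis and the hexosamine route, and is sensed through MLXIPL and its target TXNIP.

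The control libraries held 2887097, 13969325 and 10330769 exon reads and the HIGHGLUC libraries 9030731, 7513432 and 6927123, so control library 5 was the shallowest. Keratins and stromal matrix genes were present in every library. The summed level of the 11 epithelial markers was 7847 to 9089 CPM (counts per 1000000 exon reads) in the control group and 7772 to 8518 CPM in the HIGHGLUC group. CLDN7 and GRHL2 had no read in any of the 6 libraries and EPCAM had at most 4, although these genes mark many epithelia. The 8 stromal fibroblast markers summed to 11027 to 13162 CPM with control embryos and to 10786 to 12591 CPM with HIGHGLUC embryos. In each library this sum was above that of the epithelial markers. The values below are therefore not shown to be those of epithelial cells alone, and the share of each cell type was not measured. The 5 leukocyte markers summed to 12.9 to 17.6 CPM and to 11.4 to 16.4 CPM, with PTPRC and CD3E at 0 reads in each library. The 3 embryo markers summed to 0.346, 0.501 and 0.29 CPM with control embryos and to 0.554, 0.266 and 0.289 CPM with HIGHGLUC embryos. These sums overlapped between the groups. Of the embryo markers SOX2 had 0 reads. IFNT2, an interferon tau gene, had 1, 4 and 3 reads in the control group and 1, 0 and 0 in the HIGHGLUC group. The reads of the remaining embryo marker are not reported singly here, so IFNT2 does not stand for the embryo markers as a set. Where a gene has 0 reads, up to 3 are allowed by the count, equal to 0.215 CPM in the deepest and 1.04 CPM in the shallowest of these libraries. In bulk RNA of this kind, fewer cells of a type and less RNA per cell cannot be told apart.

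The test covered 11839 of 24596 genes, those with enough reads, and 5917 were higher and 5922 lower with HIGHGLUC embryos. None passed an adjusted p of 0.05 in edgeR's quasi-likelihood test (0% of genes called), and the smallest adjusted p was 1.00. At an unadjusted p under 0.05 there were 353 genes (2.98%), 163 higher (1.38%) and 190 lower (1.6%), beside 592 that this limit passes on average with no difference at all. DESeq2 and limma-voom also called 0 genes, with 229 and 443 genes at an unadjusted p under 0.05. With the runs of library numbers as a term, an alternative fit, edgeR had 788 genes at that limit, and 3 passed the adjusted test. With unique reads same-run control and HIGHGLUC libraries correlated at 0.375, 0.353 and 0.216 after removal of group means. The fit without the run term takes no account of this, and in that fit no single gene below is shown to differ. The values are given as measured. In 871 genes (7.36%) the 3 HIGHGLUC libraries did not overlap with the 3 control libraries, 448 of them higher (3.78%) and 423 lower (3.57%).

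The authors' deposited table holds a test of its own for this comparison, on normalised values, and 11 genes (0.0447% of the table) pass its FDR of 0.05, with 2 higher and 9 lower. All 11 were tested here, had the same direction with the counts and differed the same way in each of the 3 runs of library numbers. In 10 of the 11 the groups did not overlap, beside 7.36% of all tested genes. In 8 they did not overlap with uniquely matched reads either, beside 3.52% of all tested genes higher and 3.24% lower. The authors' test used these same libraries, so these counts describe the 11 genes and are no separate support for them. None of the 11 passed the adjusted edgeR test. The positions given for them are those of the table, on the build UMD3.1.

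The smallest p of the authors' deposited table belonged to DTX3L, at chr1:67588919-67597019, with an FDR of 1.11e-18 and a fold change of -1.20. In human cells DTX3L is a ubiquitin ligase that works with PARP9 and strengthens interferon signalling. Its level was 283, 282 and 291 CPM with control embryos and 237, 233 and 238 CPM with HIGHGLUC embryos. The values of each group lay close together, and all HIGHGLUC values stood below the control values. The log2 fold change in edgeR was -0.28 ± 0.10 (SE, unadjusted p = 0.0131), and the runs gave -0.26, -0.28 and -0.29.

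CMPK2, at chr11:90042356-90057598, is a mitochondrial nucleotide kinase that interferon induces. It had 76.2, 86.9 and 75.7 CPM with control embryos and 49.7, 53.4 and 58.985 CPM with HIGHGLUC embryos, with a log2 fold change of -0.56 ± 0.14. No HIGHGLUC library reached the lowest control library. WDR3, a nucleolar protein of ribosome assembly at chr3:25361277-25395822, had 113, 111 and 114 CPM against 96.3, 97.2 and 94.0 CPM, a log2 fold change of -0.24 ± 0.08. For these genes the fold changes in the authors' deposited table were -1.47 and -1.16.

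KRT7 and ITGA6 were also among the 11. KRT7, a keratin of simple epithelia at chr5:27828981-27842880, had 164, 169 and 153 CPM with control embryos and 138, 138 and 129 CPM with HIGHGLUC embryos, a log2 fold change of -0.26 ± 0.08. ITGA6, the laminin-binding integrin subunit alpha 6 at chr2:24131485-24217715, had 191, 205 and 184 CPM against 162, 160.45 and 157 CPM, a log2 fold change of -0.28 ± 0.08. In both genes the groups stood apart, and in each run the HIGHGLUC library was the lower one. Of the other tested epithelial markers, KRT8 had -0.07, KRT18 -0.05, KRT19 -0.08 and CDH1 -0.07 on the log2 scale. MUC1, a mucin of the cell surface, had 0.24 ± 0.42 from levels of 0.353 to 1.44 CPM.

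The authors' deposited table lists 2 genes as higher, IL17RA and SNX9. SNX9, a membrane-remodelling protein of endocytosis at chr9:95889261-95953588, had 138, 130 and 131 CPM with control embryos and 165, 148 and 149 CPM with HIGHGLUC embryos, a log2 fold change of 0.21 ± 0.08. The IL-17 receptor subunit IL17RA, at chr5:109376806-109391067, had 48.0, 49.6 and 48.1 CPM against 62.8, 60.3 and 57.3 CPM, and 0.31 ± 0.12 on the log2 scale. Only 58.01% of its reads matched a single place, and with those reads the groups overlapped and the log2 fold change was 0.19. CALR, a calcium-binding chaperone at chr7:13731957-13735788, had an FDR of 1.69e-04 in the authors' deposited table. Its groups overlapped, at 1388, 1347 and 1380 CPM against 1318, 1210 and 1349 CPM, and edgeR gave -0.09 ± 0.09 (unadjusted p = 0.344). With unique reads the groups of CALR did not overlap, and the log2 fold change was -0.08. The remaining calls were 3 genes with an Ensembl identifier in place of a symbol, of which ENSBTAG00000015077 had 14.2% unique reads.

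**Figure D1:**
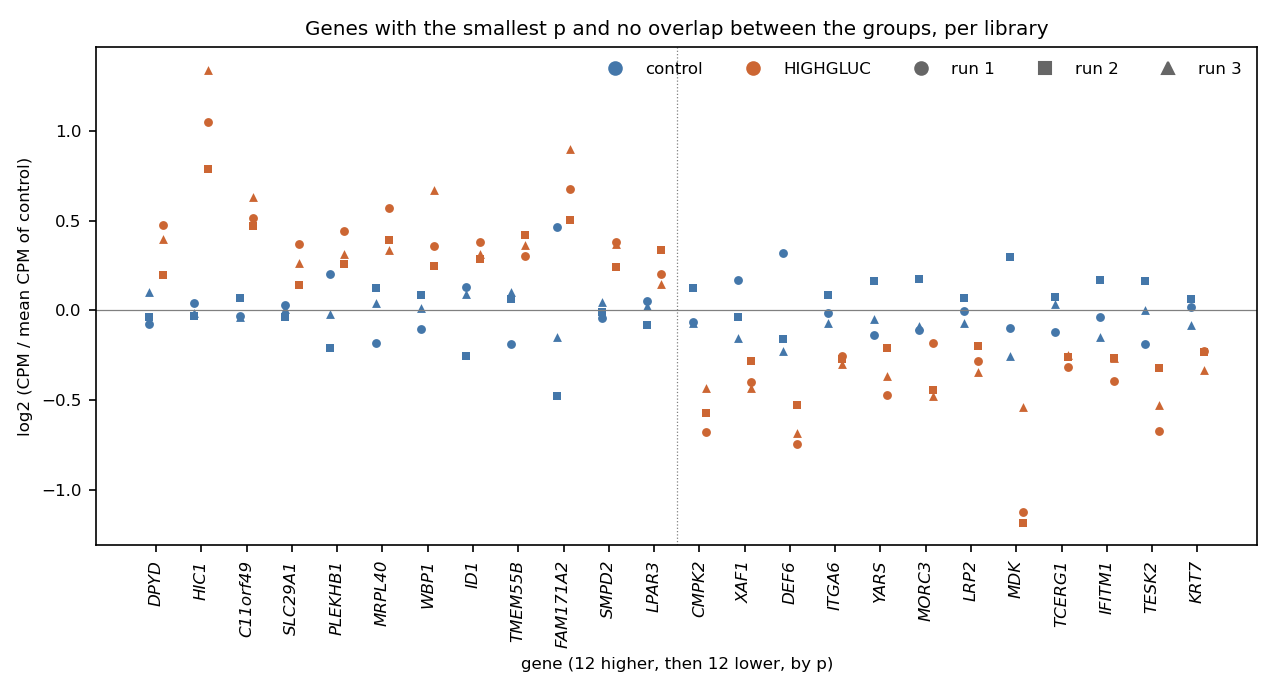
Level of each leading gene in each of the 6 libraries relative to the mean of the control libraries, on a log2 scale, for the 12 higher and the 12 lower genes with the smallest p among genes whose groups do not overlap. Blue points are control libraries, orange points are HIGHGLUC libraries, and marker shapes are the 3 runs of library numbers. MDK on the lower side and HIC1 on the higher side have the widest fold changes shown.

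Separate groups with total reads and also with unique reads were found for 3.52% of tested genes on the higher side and 3.24% on the lower side. After removal of genes without a symbol or under 2 CPM, 355 higher and 306 lower genes were left. The 12 of each side with the smallest unadjusted p are shown in the plot of leading genes. HIC1, a transcriptional repressor and tumour suppressor, had 1.41, 1.34 and 1.36 CPM with control embryos and 2.83, 2.36 and 3.47 CPM with HIGHGLUC embryos, a log2 fold change of 1.08 ± 0.30. Its control level was close to the value that 3 reads would give in the shallowest library. Higher genes with more reads were ID1, an inhibitor of basic helix-loop-helix transcription factors, and LPAR3, a receptor of lysophosphatidic acid that mice need for embryo implantation at the proper time. ID1 had 343, 264 and 335 CPM against 409, 383 and 391 CPM, a log2 fold change of 0.33 ± 0.10. LPAR3 had 73.3, 66.9 and 72.1 CPM against 81.5, 89.5 and 78.4 CPM, a log2 fold change of 0.24 ± 0.08. In both the HIGHGLUC libraries lay above every control library, and run 2 showed the widest gap (0.54 for ID1 and 0.42 for LPAR3).

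A pair of the higher genes handle pyrimidines and nucleosides. DPYD, the first enzyme of pyrimidine breakdown, had 62.4, 64.1 and 70.6 CPM with control embryos and 91.4, 75.4 and 86.6 CPM with HIGHGLUC embryos, a log2 fold change of 0.36 ± 0.10. SLC29A1, which carries nucleosides across the cell membrane, had 155, 148 and 152 CPM against 197, 167 and 182 CPM, a log2 fold change of 0.26 ± 0.08. Both had the same sign with intron reads (0.40 and 0.33). Of the 15 tested genes of pyrimidine and nucleoside metabolism 6 were higher and 9 lower, and the median was -0.04 on the log2 scale. DPYD, SLC29A1 and the lower CMPK2 were the 3 members whose groups did not overlap, which is 2 of 15 higher (13.3%, beside 3.78% of all tested genes) and 1 of 15 lower (6.67%, beside 3.57%). Each had already been picked among genes with separate groups.

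Among the lower genes MDK, which encodes the heparin-binding growth factor midkine, had 5.29, 6.97 and 4.75 CPM with control embryos and 2.60, 2.49 and 3.90 CPM with HIGHGLUC embryos. Its log2 fold change was -0.95 ± 0.28, the lowest among the genes eligible for naming. LRP2, the endocytic receptor megalin, had 371, 389.9 and 355 CPM against 306, 324 and 293 CPM, a log2 fold change of -0.28 ± 0.08. The runs of LRP2 were nearly equal, at -0.28, -0.27 and -0.28. DEF6, an exchange factor of small GTPases known from lymphocytes, had 17.98, 12.9 and 12.3 CPM against 8.60, 9.98 and 8.96 CPM, with the widest gap in run 1 (-1.04). HEY1, a transcriptional repressor downstream of Notch, had 3.88, 4.36 and 4.55 CPM against 2.26, 2.23 and 3.33 CPM, a log2 fold change of -0.74 ± 0.25. Over the 18 tested Notch and Wnt genes 9 were higher and 9 lower, with a median of -0.01.

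The interferon genes were lower with HIGHGLUC embryos in most members of 3 of 4 lists, while the signalling list was evenly split. Over the 4 lists 46 of 56 tested members were lower and 10 higher, where all tested genes split 50% and 50%, and 33 members (58.9%) were lower in each of the 3 runs, beside 13.2% of all tested genes. In 16 members (28.6%) the groups did not overlap, all lower, and in 15 of them this also held with unique reads (beside 3.24% of all tested genes). Again no member passed the adjusted test, and 16 members, all lower, had an unadjusted p under 0.05, beside 1.6% of all tested genes. The members were chosen with these values known, so the counts describe the list and do not test it.

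The receptor and signalling genes showed no common direction. Of 12 tested members 6 were higher and 6 lower, with a median of 0.00 beside 0.00 for all tested genes. The receptor subunit IFNAR1 had a log2 fold change of 0.09 and IFNAR2 of -0.01, the kinases TYK2 and JAK1 of 0.17 and 0.02, and the transcription factors STAT2, IRF9 and IRF7 of -0.16, 0.04 and 0.07. STAT2 had 114, 137 and 119.5 CPM with control embryos and 111, 106 and 116 CPM with HIGHGLUC embryos, which overlapped. The feedback inhibitor SOCS1 had the lowest value of the list, -0.96 ± 0.62, from levels of at most 2.12 CPM.

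Sensors of foreign nucleic acid were lower in 9 of 11 members, with a median of -0.20 and run medians of -0.13, -0.24 and -0.22. IFIH1, which encodes the RNA sensor MDA5, had 201, 244 and 223 CPM with control embryos and 159.6, 196 and 175 CPM with HIGHGLUC embryos, a log2 fold change of -0.33 ± 0.12. Its runs gave -0.33, -0.32 and -0.35, and the groups did not overlap. DDX58, which encodes RIG-I, had 558, 632 and 613 CPM against 509.7, 533 and 524 CPM, a log2 fold change of -0.20 ± 0.09. ZNFX1, a helicase that binds viral RNA, had 736, 776 and 731 CPM against 662, 615 and 669 CPM, also -0.20 ± 0.08. Here too every HIGHGLUC library stood below every control library. The 2 higher members were MAVS, the adaptor of these sensors (0.01), and TMEM173, the adaptor of DNA sensing (0.26).

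All 21 tested effectors were lower, and their median was -0.32 on the log2 scale. The groups did not overlap in 10 of 21 (47.6%, beside 3.57% of all tested genes). In each run 19 of 21 were lower (90.5%, beside 13.2% of all tested genes). The run medians were -0.39, -0.36 and -0.27. Without any 1 of the 6 libraries 19 to 21 members stayed below 0, and the median lay between -0.27 and -0.40.

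MX2, a dynamin-like antiviral protein, had the largest difference of the effectors. It had 716, 1155 and 531 CPM with control embryos and 284, 513 and 464 CPM with HIGHGLUC embryos, a log2 fold change of -0.93 ± 0.33. The runs differed widely, at -1.33, -1.17 and -0.20. Its relative Mx1 had 1520, 2104 and 1726 CPM against 1222, 1532 and 1537 CPM (-0.32 ± 0.13), with overlap between groups. OAS2 and OAS1X make oligoadenylates that activate an RNA-degrading enzyme. OAS2 had 20.8, 44.3 and 20.4 CPM against 15.8, 18.8 and 18.5 CPM, so that control library 9 stood well above the rest. OAS1X had 103, 144 and 102 CPM against 75.4, 98.5 and 81.5 CPM, a log2 fold change of -0.46 ± 0.14, and its groups overlapped with unique reads.

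The IFIT genes, which bind foreign RNA, lie close together on chromosome 26 in the table and did not all behave alike. IFIT3 had 218, 186 and 156 CPM with control embryos and 127, 89.5 and 123 CPM with HIGHGLUC embryos, a log2 fold change of -0.72 ± 0.30. IFIT2 had 291, 200 and 213 CPM against 178, 124 and 148 CPM (-0.64 ± 0.33), and IFIT1 had 1153, 928 and 1155 CPM against 903, 876 and 923 CPM (-0.26 ± 0.14). In these 3 the groups did not overlap. IFIT5 had 671, 566 and 637 CPM against 639, 647 and 554 CPM, which overlapped, with -0.03 on the log2 scale.

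RSAD2, which encodes the antiviral enzyme viperin and lies next to CMPK2 on chromosome 11, had 581, 369 and 489 CPM with control embryos and 351, 278 and 357 CPM with HIGHGLUC embryos, a log2 fold change of -0.54 ± 0.30. XAF1, an interferon-induced partner of the apoptosis inhibitor XIAP, had 85.3, 74.0 and 68.3 CPM against 57.6, 62.5 and 56.2 CPM, a log2 fold change of -0.36 ± 0.10. Neither gene overlapped between groups. IFITM1, a membrane protein that restricts virus entry and was named through the leading genes, had 758, 876 and 702 CPM against 593, 649 and 648 CPM, a log2 fold change of -0.31 ± 0.09. Its run 3 difference was the smallest, at -0.12.

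Genes of ISG15 attachment and the interferon-induced PARP enzymes were lower in 10 of 12 members, with a median of -0.19. ISG15 itself had 754, 928 and 664 CPM with control embryos and 591, 659.9 and 582 CPM with HIGHGLUC embryos, a log2 fold change of -0.36 ± 0.12. HERC5, the ligase that attaches ISG15 to proteins in human cells, had 106, 107 and 108 CPM against 77.7, 76.0 and 92.7 CPM, -0.39 ± 0.14. The control libraries of HERC5 were almost equal and the HIGHGLUC libraries were all lower. UBA7, the activating enzyme of the pathway, had 324, 444 and 357 CPM against 287, 366 and 319.8 CPM, a log2 fold change of -0.21 ± 0.13, with overlap. PARP14 was lower in runs 2 and 3 (-0.39 and -0.42) and level in run 1 (0.01).

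**Figure D2:**
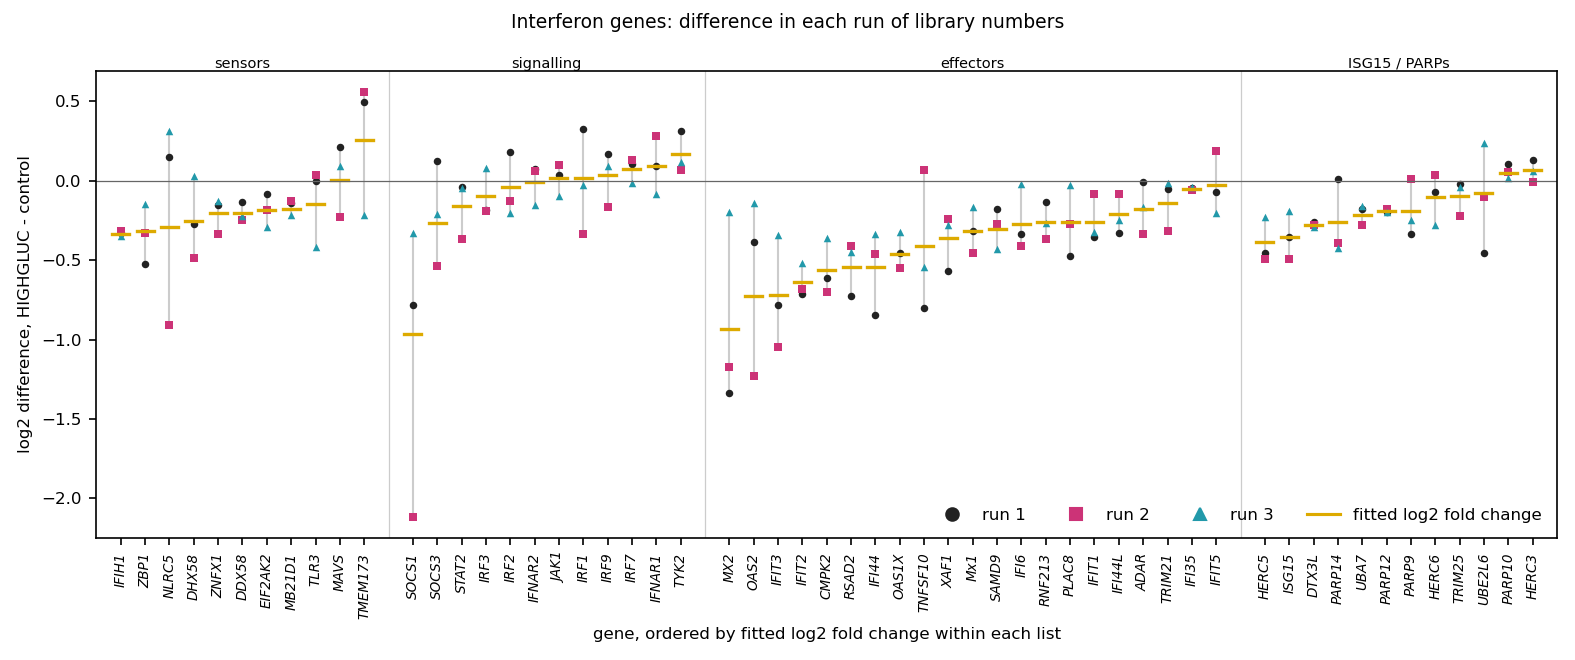
Log2 difference between the HIGHGLUC and the control library of the same run for each tested interferon gene, by list, with 1 marker shape per run and a bar for the fitted log2 fold change. All 21 effectors lie below 0 in the fit and 19 of them in each run, whereas the signalling genes lie on both sides of 0.

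Per kilobase of exon, on the RPKM scale of the authors' deposited table, the most abundant interferon genes of the control libraries were IFI6 with a mean of 3008, ISG15 with 1178, IFIT1 with 687 and Mx1 with 672. In the HIGHGLUC libraries the same table gives means of 2502, 926, 578 and 543. The order of these 4 genes was the same in both groups. IFI6, an interferon-induced mitochondrial protein, had 2477, 2330 and 1676 CPM against 1961, 1752 and 1652 CPM, which overlapped.

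Intron reads, a separate count that comes partly from unspliced RNA, were tested in the same way for 9713 genes, of which 50.1% were lower and none passed the adjusted test. Of 17 effectors with enough intron reads 15 were lower, and their median was -0.24. Of 12 genes of ISG15 attachment and the PARPs 9 were lower, with a median of -0.24, and of 9 sensors 7 were lower, with a median of -0.07. Among genes named above, MX2 (-0.84), RSAD2 (-0.41), OAS2 (-0.38) and DTX3L (-0.43) were lower with intron reads too, whereas ISG15 (0.18), HERC5 (0.06), IFITM1 (0.05) and STAT2 (0.46) were higher. Reads from an overlapping or antisense gene cannot be told apart in these counts, for which no use of strand is stated.

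Antigen presentation, which interferon also raises, was lower in 9 of 11 members, with a median of -0.17. The run medians were -0.36, -0.28 and 0.02, so the median of run 3 was close to 0. Without control library 9 the median was -0.10, and without control library 13 it was -0.26. B2M, the light chain of MHC class I, had 1642, 1792 and 1239 CPM with control embryos and 1168, 1362 and 1145 CPM with HIGHGLUC embryos (-0.35 ± 0.13). PSMB10, a subunit of the immunoproteasome, had 23.3, 32.5 and 20.7 CPM against 15.4, 21.7 and 19.1 CPM (-0.46 ± 0.19). The groups overlapped in all 11, and the MHC heavy chains BOLA-A (-0.17) and JSP.1 (0.02) share reads with near-identical copies. Of 11 tested chemokine and inflammation genes 8 were lower and 3 higher. CXCL10, a chemokine that interferon induces, had 289, 259.9 and 185 CPM against 191, 217 and 153 CPM, with overlap (-0.39 ± 0.19). Of its reads 45.0% were unique, and with those the groups did not overlap and the log2 fold change was -0.45 (unadjusted p = 0.00615 in edgeR).

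The scavenger receptor CD163, a marker of macrophages, was lower in each run, with overlap between groups. It had 12.7, 12.7 and 7.36 CPM with control embryos and 7.92, 7.62 and 5.64 CPM with HIGHGLUC embryos, a log2 fold change of -0.60 ± 0.23. The other myeloid marker tested, CD14, had 4.94, 3.31 and 5.52 CPM against 8.49, 3.94 and 5.78 CPM (0.44 ± 0.34). Among the 5 leukocyte markers PTPRC and CD3E were at 0 and CSF1R had 1 read in control library 9. Their part in the interferon result was not tested.

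**Figure D3:**
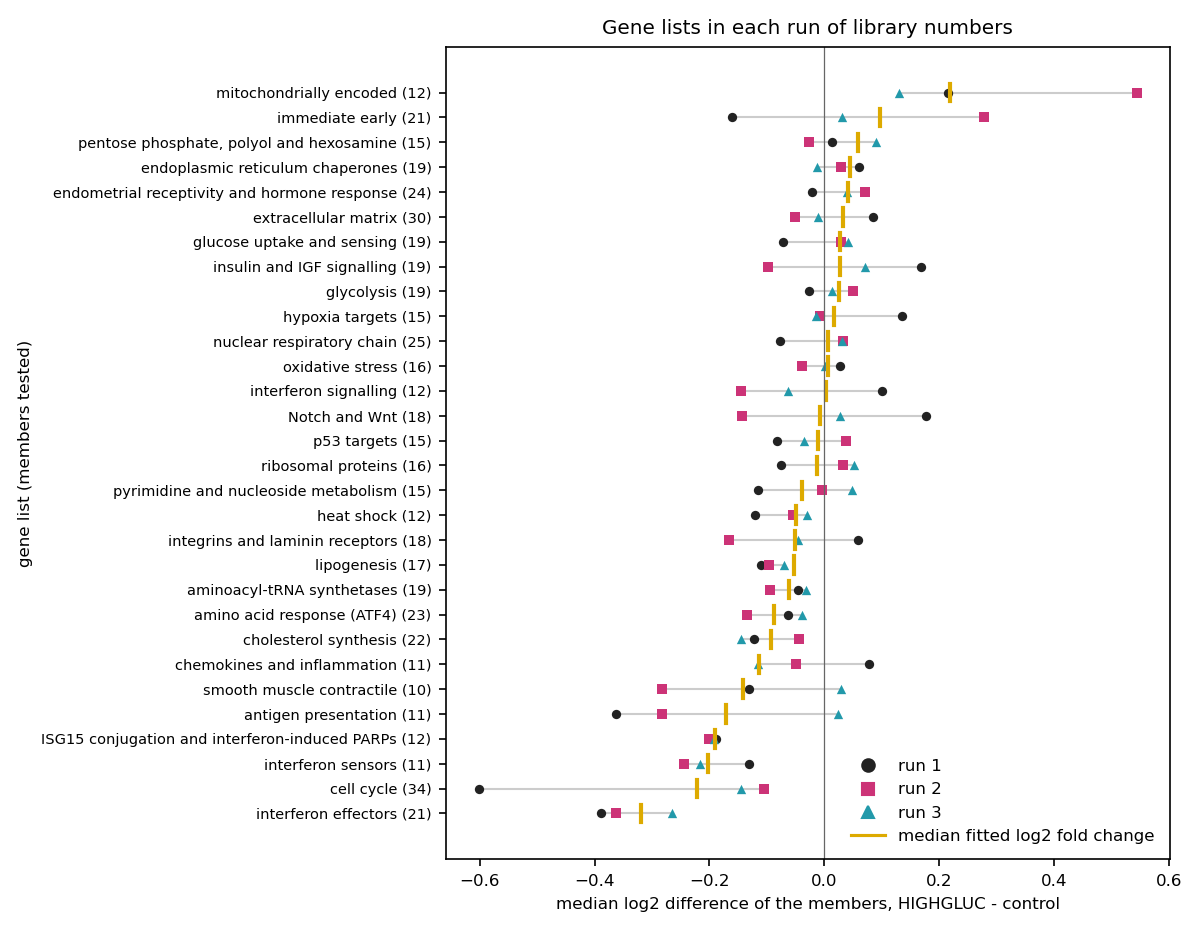
Median log2 difference between the HIGHGLUC and the control library of the same run over the tested members of each gene list, with 1 marker shape per run and a bar for the median fitted log2 fold change. The interferon effectors lie below 0 and the mitochondrially encoded genes above 0 in each run, and the cell cycle list reaches -0.60 in run 1 and lies near -0.1 in the others.

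All 12 tested genes of the mitochondrial genome were higher, and 8 of 12 were higher in each run (66.7%, beside 13.5% of all tested genes). These genes encode subunits of the respiratory chain and of ATP synthase. In cytb, the cytochrome b gene, the levels were 788, 605 and 1121 CPM with control embryos and 1073, 981 and 1416 CPM with HIGHGLUC embryos, 0.46 ± 0.26 on the log2 scale. COX3 had 2675, 2242 and 3920 CPM against 3496, 3361 and 4331 CPM (0.34 ± 0.21). The groups overlapped in all 12, and in cytb and COX3 control library 13 was above HIGHGLUC libraries 6 and 10. The run medians were 0.22, 0.54 and 0.13. Without control library 9 the median was 0.08 with 11 of 12 members higher, without control library 13 it was 0.43, and without HIGHGLUC library 14 it was 0.14, all from a median of 0.22. Mitochondrial genes took 2.72 to 4.07% of exon reads in the control group and 3.52 to 4.25% in the HIGHGLUC group.

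Respiratory chain genes of the nucleus did not show this. Of 25 tested members 14 were higher and 11 lower, with a median of 0.01. NDUFA1, a subunit of complex I, had 40.6, 30.8 and 30.1 CPM with control embryos and 28.7, 27.0 and 29.2 CPM with HIGHGLUC embryos, lower without overlap. NDUFS3, another subunit of that complex, had 27.9, 24.8 and 23.0 CPM against 29.1, 28.4 and 27.8 CPM, which overlapped by a narrow margin. MRPL40, a protein of the mitochondrial ribosome, was among the leading higher genes with 11.3, 13.9 and 13.2 CPM against 19.0, 16.8 and 16.2 CPM (0.42 ± 0.13).

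Cell cycle genes were lower in 32 of 34 members and the difference was widest in run 1. The run medians were -0.60, -0.11 and -0.14, and 16 of 34 members were lower in each run (47.1%, beside 13.2% of all tested genes). BUB1, a kinase of the mitotic checkpoint, had 39.1, 58.1 and 46.0 CPM with control embryos and 23.8, 50.0 and 39.0 CPM with HIGHGLUC embryos, and CDC20, an activator of the anaphase ligase, had 25.4, 39.0 and 28.4 CPM against 13.4, 32.0 and 25.6 CPM. HIGHGLUC library 6 was the lowest of the 6 in both genes and the groups overlapped. Without that library 13 members were lower and 21 higher, with a median of 0.01, and without control library 9 the median was -0.06. Without HIGHGLUC library 10 the median was -0.54. The cell cycle inhibitor CDKN1B was one of the 2 higher members, with 49.4, 48.2 and 60.2 CPM against 71.4, 61.1 and 51.3 CPM.

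Genes of glucose handling showed no common difference. Of 19 tested genes of uptake and sensing 13 were higher and 6 lower, with a median of 0.03 and run medians of -0.07, 0.03 and 0.04. TXNIP, the glucose-induced inhibitor of thioredoxin and of glucose uptake, had 383, 432 and 365 CPM with control embryos and 538, 375 and 310.1 CPM with HIGHGLUC embryos. It was higher in run 1 (0.49) and lower in runs 2 and 3 (-0.21 and -0.23), and its fitted log2 fold change was 0.05 ± 0.19. ARRDC4, another target of the same glucose sensor, had 22.9, 18.7 and 18.4 CPM against 18.7, 16.1 and 19.2 CPM. The transporter SLC2A1 followed the run, with 100.2, 65.1 and 88.4 CPM against 110, 64.9 and 88.3 CPM, and differed by 0.13, -0.01 and 0.00 within runs.

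MLXIPL, the glucose-responsive transcription factor ChREBP, had 18.3, 17.0 and 21.4 CPM against 22.9, 19.96 and 22.6 CPM, higher in each run by 0.31, 0.23 and 0.07, with overlap between groups. Of 19 glycolysis genes 11 were higher and 8 lower, none with separate groups. PGK1, which makes ATP in the lower part of the pathway, had 412, 412 and 359 CPM against 357, 375 and 332 CPM (-0.15 ± 0.09), and PFKFB3, an activator of its upper part, had 38.1, 29.0 and 32.4 CPM against 36.8, 37.8 and 41.1 CPM (0.24 ± 0.15).

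In the list of pentose phosphate, polyol and hexosamine enzymes 11 of 15 members were higher, with a median of 0.06. The 2 members with separate groups (13.3%, beside 3.78% of all tested genes) both belong to the hexosamine route that ends in UDP-N-acetylglucosamine. UAP1, the last enzyme of that route, had 57.1, 61.5 and 63.4 CPM with control embryos and 69.3, 70.0 and 66.8 CPM with HIGHGLUC embryos, a log2 fold change of 0.17 ± 0.07. GNPNAT1, an acetyltransferase earlier in the route, had 21.5, 20.7 and 18.5 CPM against 21.7, 24.0 and 21.7 CPM (0.16 ± 0.15), where the gap between the nearest libraries was narrow. With intron reads both were on the other side of 0, at -0.07 for UAP1 and -0.08 for GNPNAT1. GFPT2, a form of the first enzyme, had 437, 347 and 463 CPM against 485, 385 and 478 CPM, higher within each run but not beyond the spread of the groups.

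Of 19 tested genes of insulin and IGF signalling 11 were higher and 8 lower. IRS1 and IRS2, the adaptor proteins of the insulin receptor, had the highest values. IRS1 had 32.1, 33.8 and 33.5 CPM with control embryos and 37.0, 35.1 and 49.2 CPM with HIGHGLUC embryos, which did not overlap (0.28 ± 0.13). IRS2 had 30.3, 23.6 and 33.0 CPM against 41.1, 30.1 and 41.5 CPM, which overlapped, while every run gave a similar difference of 0.43, 0.35 and 0.33. The receptor genes INSR (0.12) and IGF1R (-0.08) were closer to 0. Hypoxia targets, many of which are glycolytic or angiogenic, were split with 9 higher and 6 lower of 15.

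**Figure D4:**
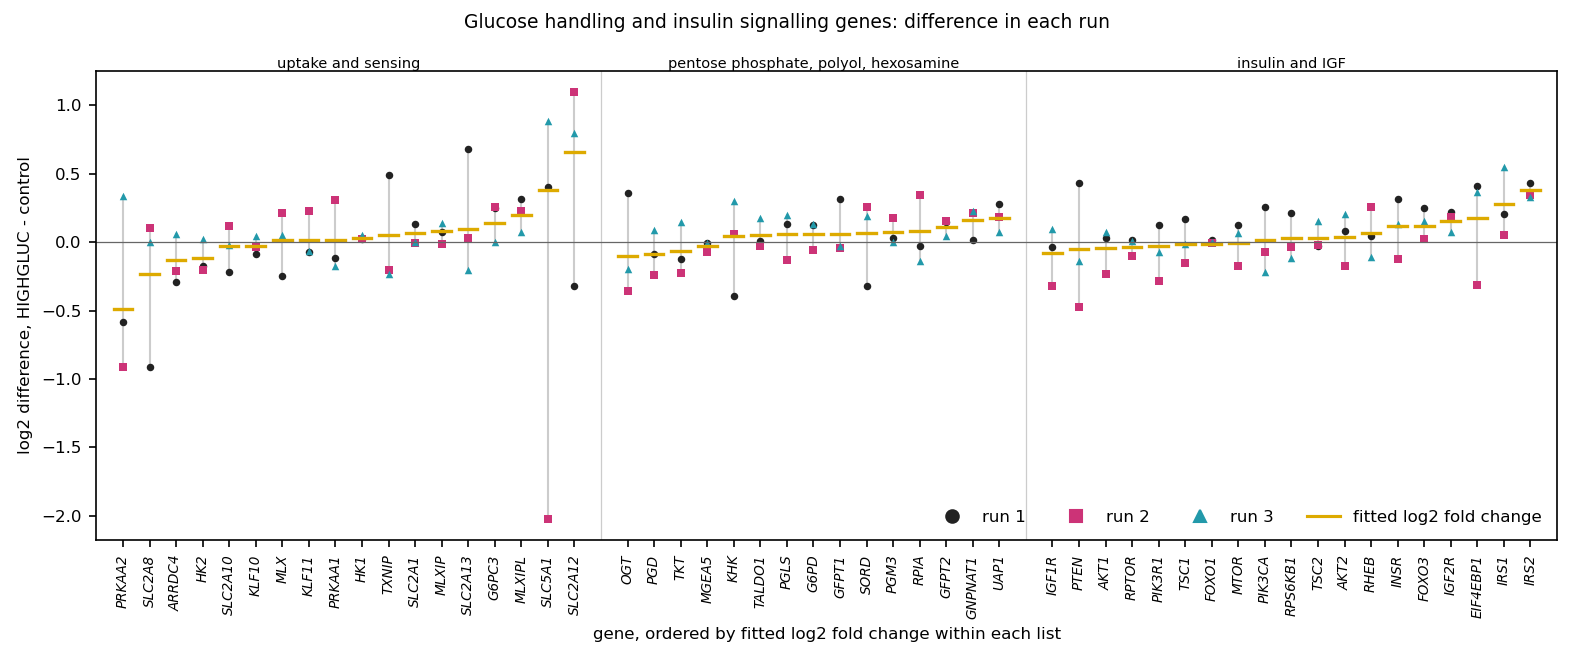
Log2 difference between the HIGHGLUC and the control library of the same run for tested genes of glucose uptake and sensing, of the pentose phosphate, polyol and hexosamine routes, and of insulin and IGF signalling, with 1 marker shape per run and a bar for the fitted log2 fold change. IRS2 lies above 0 by a similar amount in each run, and TXNIP lies on both sides of 0.

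Enzymes that load transfer RNA with amino acids were lower in 13 of 19 members, with a median of -0.06. YARS, which loads tyrosine, had 102, 126 and 109 CPM with control embryos and 80.9, 97.0 and 87.3 CPM with HIGHGLUC embryos, a log2 fold change of -0.35 ± 0.10 and runs of -0.34, -0.38 and -0.32. WARS, which loads tryptophan and is also induced by interferon, had 535, 843 and 568 CPM against 409.9, 554 and 471 CPM (-0.44 ± 0.18), with overlap. The groups stood apart in YARS, GARS, IARS and EPRS on the lower side and in HARS on the higher side, so 4 of 19 were lower without overlap (21.1%, beside 3.57%). GARS, which loads glycine, had 101, 114 and 104 CPM against 96.3, 94.5 and 92.2 CPM (-0.17 ± 0.07). With intron reads YARS had 0.03 and GARS -0.53.

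The amino acid response led by ATF4 was lower in 17 of 23 members, with a median of -0.09. The groups did not overlap in 2 of 23 on the lower side (8.7%, beside 3.57% of all tested genes). On the higher side this held for 1 of 23 (4.35%, beside 3.78%). With unique reads as well it held for 1 member on each side. PSAT1, an enzyme of serine synthesis, had 27.5, 36.7 and 33.6 CPM against 19.7, 29.1 and 22.7 CPM, a log2 fold change of -0.47 ± 0.16 with overlapping groups. GDF15, a stress-induced secreted factor, had 3.53, 4.79 and 3.58 CPM against 2.83, 2.36 and 2.17 CPM, -0.72 ± 0.31 without overlap. CHAC1, which breaks down glutathione, went the other way with 2.12, 1.48 and 2.03 CPM against 2.38, 1.97 and 4.34 CPM (0.66 ± 0.35). ER chaperones and folding genes, a neighbouring stress program, were higher in 13 of 19 members and none had separate groups. HERPUD1, a gene of ER-associated degradation, had 79.0, 58.9 and 55.9 CPM against 92.3, 65.5 and 76.2 CPM.

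Cholesterol synthesis genes were lower in 20 of 22 members, by a median of -0.09. NSDHL, a sterol dehydrogenase, was the 1 member with separate groups (4.55% of the list, beside 3.57% of all tested genes on the lower side). It had 73.0, 75.1 and 73.4 CPM with control embryos and 60.9, 72.6 and 60.1 CPM with HIGHGLUC embryos (-0.20 ± 0.09). The count of lower members fell to 13 of 22 without control library 9, to 14 without HIGHGLUC library 6 and to 12 without HIGHGLUC library 14. Without HIGHGLUC library 10 it was 22 of 22, with a median of -0.25. Lipogenesis genes were lower in 12 of 17 members. DGAT2, which makes triglyceride, had 2.82, 3.52 and 2.13 CPM against 2.04, 2.10 and 1.73 CPM, and SREBF1, a transcription factor of lipid synthesis, had 70.5, 84.7 and 76.2 CPM against 81.8, 89.8 and 90.9 CPM, which overlapped.

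Of the stress lists, heat shock genes were split, with 5 higher and 7 lower of 12. The chaperones HSPA4 and HSP90AA1 had separate groups on the lower side, 2 of 12 (16.7%, beside 3.57% of all tested genes). HSPA4 had 302, 336 and 337 CPM with control embryos and 274, 301 and 278 CPM with HIGHGLUC embryos, a log2 fold change of -0.19 ± 0.08. The 16 tested oxidative stress genes had 10 higher and 6 lower members. GPX3, a secreted glutathione peroxidase, had 12.7, 8.87 and 9.49 CPM against 24.1, 12.2 and 17.1 CPM, higher in each run by 0.91, 0.45 and 0.83 (0.84 ± 0.26). The groups of GPX3 overlapped, because control library 5 was above HIGHGLUC library 10.

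Of 30 tested matrix genes 17 were higher and 13 lower, none with separate groups. The widest difference was in COL6A3, a chain of collagen VI, with 5.29, 0.845 and 7.46 CPM against 18.9, 2.76 and 9.40 CPM (1.29 ± 1.00). Its libraries varied widely within each group. POSTN, which encodes the matrix protein periostin, had 464, 397 and 325 CPM with control embryos and 268, 339 and 298 CPM with HIGHGLUC embryos (-0.39 ± 0.15). Among 18 integrins and laminin receptors 13 were lower, and ITGA6 was the 1 member with separate groups (5.56%, beside 3.57% of all tested genes). Of 24 tested genes of receptivity and hormone response 17 were higher and 7 lower, with a median of 0.04, and none had separate groups. In that list PLA2G4A, the phospholipase that releases arachidonic acid for prostaglandins, had 274, 249.5 and 304 CPM against 215, 265 and 234 CPM.

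The stromal markers PDGFRA and THY1 varied widely within each group. PDGFRA had 43.7, 25.3 and 66.1 CPM with control embryos and 88.3, 27.0 and 66.6 CPM with HIGHGLUC embryos. THY1 had 7.76, 2.32 and 6.2 CPM against 17.99, 2.89 and 10.1 CPM. Both were lowest in the libraries of run 2, and HIGHGLUC library 6 was highest in both. The smooth muscle contractile genes were lower in 9 of 10 tested members, with a median of -0.14 and no separate groups. Of the 10 members 2 were lower in each run (20%, beside 13.2% of all tested genes). The run medians were -0.13, -0.28 and 0.03. The higher member was DES, with 1.41, 0.07 and 0.68 CPM against 1.70, 1.31 and 1.88 CPM (1.70 ± 0.74).

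The widest differences were found mostly in genes with multiply matched reads. Of the tested genes 739 had under 90% unique reads, and 122 of them differed by more than 1 on the log2 scale, against 34 of the 11100 other genes. With unique reads alone 137 of 601 such genes (22.8%) changed sign, beside 257 of 11099 others (2.32%). RPS16, a ribosomal protein gene, had 126, 1.41 and 3.49 CPM with control embryos and 2.49, 3.15 and 3.61 CPM with HIGHGLUC embryos, a log2 fold change of -3.66 ± 1.78, and 0.36 without control library 5. Of its reads 21.2% were unique, and with those the value was 0.30. Of the 871 genes with separate groups 800 also had separate groups in the same direction with unique reads.

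**Figure D5:**
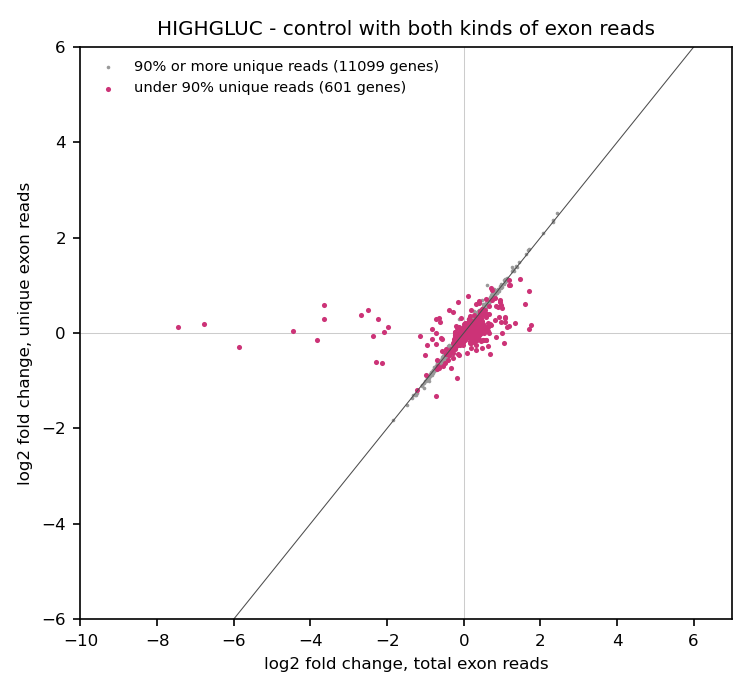
Log2 fold change with unique exon reads against log2 fold change with total exon reads, 1 point per gene with both values, in grey for genes with 90% or more unique reads and in colour for genes below that. Grey points follow the diagonal, while many coloured points with a wide difference on the horizontal axis lie near 0 on the vertical axis.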

How the data were processed

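RNA of BEEC was sequenced as single reads of 50 bp, per the labels' protocols, while the headers of the table have the word paired. The submitters' processing notes name Bowtie2, HTSeq 0.5.4p2 and the build UMD3.1 without the role of each. The deposited table gives raw counts of total exon reads, unique exon reads and intron reads per gene, and total exon reads include multiply matched ones. The RPKM columns were deposited by the authors per kilobase of exon. The fold change deposited by the authors, of weighted proportions, is a score with a sign, and the deposited p-value columns hold Baggerley's test and its FDR, on normalised values, per the file headers. The exon length and gene positions are other columns deposited by the authors. A further 157 library columns were left aside.

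Counts of all 9 libraries were fitted by group with edgeR 4.0.16 in R 4.3.3 (filterByExpr with a minimum count of 10, TMM, robust quasi-likelihood test, Benjamini-Hochberg adjustment at 0.05). The third group, LOWAA, entered only to estimate the spread. CPM values of tested genes carry TMM factors and those of untested list members do not, so the marker sums can hold both. The standard errors of fold changes were derived from the fold change and the F statistic of the test. The differences within a run use log2 CPM with a prior count of 2. The runs are libraries 5 and 6, 9 and 10, and 13 and 14, by library number, and no label explains these numbers. Unique reads, intron reads, runs as a term, DESeq2 1.42.0, limma-voom 3.58.1, other filters and scalings and leaving out each library were alternatives. The chi-square per degree of freedom between replicates was 8.37 to 27, so none was a copy.

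The members and gene lists were chosen with earlier results of these data known. Named genes were the 12 higher and 12 lower with the smallest p among genes with a symbol, at least 2 CPM and no overlap with total and unique reads, the 6 with the widest fold change on each side, adjusted calls, and up to 3 of each list by p. Further list members and the genes of the authors' calls were named after their values were seen. Limits from counts cover counting error only, since PCR reads without molecular identifiers are not independent molecules. Sequences were not used here, since no genome was at hand. Values of some list members are not reported here, although the list counts hold them.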

Additional observations from a re-analysis of the deposited data

How the results depend on the processing

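The count of 0 genes passing edgeR's adjusted test also came from unique reads, intron reads, the 6 libraries alone, DESeq2 size factors, DESeq2, limma-voom, both other filters and each omission of 1 library. With the runs as a replicate block 3 genes passed, cytb higher and ATP8B4 and S100A2 lower. The block gave 7 genes with unique reads, with OAS1X and WARS among the lower ones, and 6 with the 6 libraries alone. Under the block, omission of 1 library gave 0 to 31 genes. It was 0 without control library 5, control library 9 or HIGHGLUC library 10, 31 without control library 13, 19 without HIGHGLUC library 6, 13 without LOWAA library 12, 6 without HIGHGLUC library 14, 5 without LOWAA library 15 and 4 without LOWAA library 8. The libraries of a run have neighbouring library numbers and consecutive S numbers in the headers, and the labels say nothing more on the runs. With total reads the common coefficient of variation between libraries was 0.171 without the block and 0.107 with it. Same-run control and HIGHGLUC libraries correlated at 0.454, 0.047 and 0.43 after removal of group means with total reads, and at 0.375, 0.353 and 0.216 with unique reads, so 1 pair was under 0.1 with total reads and none with unique reads. With unique reads every library correlated best with libraries of its own run, a hint from the data and not from the design, and the fit without the block was kept.

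Single genes changed sign mostly with intron reads, namely DCN (-0.31), GK5 (-0.20), GNPNAT1 (-0.075), GPX3 (-0.021), HERC5 (0.062), IFITM1 (0.054), IGF2R (-0.067), ISG15 (0.18), MORC3 (0.085), PLEKHB1 (-0.0039), PSMB8 (0.18), RPS25 (-0.077), STAT2 (0.46), TMEM55B (-0.18), UAP1 (-0.068) and YARS (0.028), and the cause was not tested. Omission of 1 library gave 0.36 to -4.316 for RPS16 (lowest without control library 9) and -0.064 to 1.086 for PDK4 (highest without HIGHGLUC library 10). RPS16 turned to 0.30 with unique reads, to 0.39 with unique reads and the block, to 0.36 without control library 5 and to 0.45 without it under the block. RPS25 turned to -0.0089 without control library 5 under the block, and PDK4 to -0.064 without HIGHGLUC library 6. Counts of list members on each side of 0 under each setting were an alternative chosen after seeing the data. In the shallowest library, with 2887097 reads, 0 reads allow up to 1.04 CPM.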
